A study of Mus musculus with 2 samples.

Results

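The complement and coagulation genes measured here are 45 of the 19465 genes in the probe panel of a mouse liver spatial transcriptomics experiment. They were chosen by symbol and by no measured value, although earlier results of these data were known. They are the plasma factors, regulators and pattern recognition proteins of the complement cascade and of blood clotting and its control. The serpin inhibitors were left out. By role they are 6 genes that start the classical pathway, 5 of the lectin pathway, 3 of the alternative pathway, C3, 7 terminal components, 3 complement inhibitors, 11 procoagulant genes including the 3 fibrinogen chains, 4 of the contact system (with Hrg, which is not a core component, counted there), 3 vitamin K-dependent genes of the anticoagulant side and 2 of fibrinolysis. Of the 45, 43 reached a mean of 10 UMIs (unique molecular identifiers, the counted molecules) per 1000000 (CPM) over the libraries. The exceptions were Cfd and C7, and every count below is over the other 43 unless stated.

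The study placed 1 liver section from an AEG-1ΔMAC mouse and 1 from an AEG-1fl/fl mouse on the Visium FFPE assay, which captures probe-labelled RNA on a grid of barcoded spots. In AEG-1ΔMAC mice, on a C57BL/6J background, the floxed AEG-1 gene (Mtdh), which encodes astrocyte elevated gene-1, is deleted by a Cre recombinase driven from the lysozyme M locus and so active in macrophages, monocytes and neutrophils, while AEG-1fl/fl littermates carry the same floxed alleles without Cre. Both mice were 27 weeks old. The labels state a high fat and high sugar diet (HF/HSD) from 7 weeks of age for both, whereas the methods of the study describe the spatial sections as coming from control diet-fed littermates, so the diet that these livers received was not settled here. With 1 library per genotype there was no replicate and no test, and each interval below is a 95% interval that covers counting error only. Mtdh itself had 66.3 CPM in AEG-1ΔMAC against 60.2 CPM in AEG-1fl/fl. Because a spot holds several cells, mostly hepatocytes, this level does not check the deletion in myeloid cells.

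Complement is a proteolytic cascade of the blood. C1q bound to antibody or to dying cells, or mannose-binding lectins and ficolins bound to microbial sugars, activate serine proteases that cleave C4 and C2, and all routes meet at C3, whose cleavage marks a surface for uptake and leads to the membrane attack complex of C5 to C9. Coagulation is a second cascade, in which vitamin K-dependent proteases make thrombin, thrombin turns fibrinogen into fibrin, and plasmin later dissolves it. Hepatocytes secrete most of these proteins into plasma. C1q, ficolin-A and properdin are known as products of macrophages, and factor VIII as a product of endothelium.

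Several of the genes lie side by side in the genome, which allows neighbours to be compared. C1qa, C1qc and C1qb, the chains of C1q, follow each other on chromosome 4 with gaps of 2851 and 3616 bases between the gene bodies (mm10, GENCODE M21). Fgg, Fga and Fgb, the chains of fibrinogen, lie on chromosome 3 with gaps of 11026 and 6513 bases. C6 (chr15:4727175-4814967) and C7 (chr15:4988762-5063740), successive components of the membrane attack complex, are 173794 bases apart. The first 2 groups each moved together over the spots. C6 and C7, the latter under the minimum, had opposite biases along the lobule (below). The promoters matched for these neighbours, all but C1qa, are therefore shown. The sequences are RefSeq's (GRCm38.p6), read on the gene's strand from 250 bases before the RefSeq start and ending before the first base of the gene in either annotation. Capitals mark matches, on either strand, to 5 motifs searched: TATAAA (the box near many starts), GTTAAT (a half-site of the hepatocyte factor HNF1), CAAAGTCCA (HNF4), TTGCNNAA (C/EBP) and GAGGAA (the core bound by the myeloid factor PU.1).
C1qb, chr4:136886201-136886450, reverse strand: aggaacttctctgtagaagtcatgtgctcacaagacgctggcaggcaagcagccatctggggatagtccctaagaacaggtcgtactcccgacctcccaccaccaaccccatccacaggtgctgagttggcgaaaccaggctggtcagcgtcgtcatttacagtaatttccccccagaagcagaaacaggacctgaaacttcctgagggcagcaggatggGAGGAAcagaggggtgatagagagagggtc
C1qc, chr4:136893066-136893164, reverse strand: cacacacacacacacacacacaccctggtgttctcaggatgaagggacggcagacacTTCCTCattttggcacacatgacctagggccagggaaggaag
Fga, chr3:83025903-83026075, forward strand: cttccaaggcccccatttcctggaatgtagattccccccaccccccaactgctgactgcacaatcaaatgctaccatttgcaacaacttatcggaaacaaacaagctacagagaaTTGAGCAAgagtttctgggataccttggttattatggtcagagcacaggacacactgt
Fgb, chr3:83049864-83050113, reverse strand: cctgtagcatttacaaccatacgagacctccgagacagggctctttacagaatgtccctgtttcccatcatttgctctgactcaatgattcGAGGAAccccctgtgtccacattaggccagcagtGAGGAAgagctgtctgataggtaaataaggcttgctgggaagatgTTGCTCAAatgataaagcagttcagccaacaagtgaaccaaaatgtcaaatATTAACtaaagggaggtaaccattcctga
Fgg, chr3:83007474-83007723, forward strand: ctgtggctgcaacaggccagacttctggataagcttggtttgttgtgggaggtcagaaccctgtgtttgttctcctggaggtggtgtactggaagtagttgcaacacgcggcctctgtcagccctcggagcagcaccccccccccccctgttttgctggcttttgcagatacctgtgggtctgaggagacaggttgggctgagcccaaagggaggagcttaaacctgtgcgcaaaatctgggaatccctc
C6, chr15:4726960-4727174, forward strand: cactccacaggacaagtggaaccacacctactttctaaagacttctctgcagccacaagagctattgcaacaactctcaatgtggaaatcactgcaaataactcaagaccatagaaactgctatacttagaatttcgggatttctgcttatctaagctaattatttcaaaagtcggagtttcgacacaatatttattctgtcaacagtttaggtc
C7, chr15:5063774-5064023, reverse strand: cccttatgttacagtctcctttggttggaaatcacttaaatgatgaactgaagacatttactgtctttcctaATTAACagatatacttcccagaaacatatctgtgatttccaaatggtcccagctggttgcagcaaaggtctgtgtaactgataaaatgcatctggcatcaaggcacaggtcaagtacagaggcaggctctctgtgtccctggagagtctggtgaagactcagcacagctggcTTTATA

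A promoter was found for 36 of the 45 genes, in 37 windows, and the motifs were counted in the 250 bases before the start. The HNF1 half-site was found in 12 of the 37 windows (32.4%) against 6.43% of all 32851 promoters in the table. TTGCNNAA was found in 8 of 37 (21.6%) against 9.56% of all, and GAGGAA in 5 of 37 (13.5%) against 23.3%. Among the 5 genes that were higher in Kupffer cell marker-rich spots below, 4 had a window, and GAGGAA was in 3 of these 4 against 2 of the other 33. TATAAA was in 4 of 37 (10.8%) against 12.4% of all promoters, and CAAAGTCCA in 0 of 37 against 0.384%. The motifs can share bases by chance, and a match is only a match of letters.

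After the spot filter of the study, the AEG-1ΔMAC section kept 2140 spots (45453286 UMIs) and the AEG-1fl/fl section 2540 spots (50322850 UMIs), with medians of 20930 and 18285 UMIs per spot, so that 10 CPM corresponded to 455 and 503 UMIs. The libraries shared 1776 spot barcodes (83.0% and 69.9% of their spots), which 2 capture areas of one barcode set do by design. The median gene of the 6933 with a mean of 10 CPM or more had a log2 ratio of 0.15, AEG-1ΔMAC over AEG-1fl/fl. The hepatocyte markers were detected throughout, and their sum was 168170 CPM in AEG-1ΔMAC against 236545 CPM in AEG-1fl/fl, mainly through albumin (Alb, 87957 and 141947 CPM). Of the 9 Kupffer cell markers, 8 were in the panel, and their sum was 638 and 616 CPM. Markers of neutrophils and monocytes summed to 7.26 and 22.2 CPM, of adipocytes to 0.528 and 0.417 CPM, of platelets to 8.49 and 10.8 CPM and of mesothelium to 2.07 and 4.83 CPM. Those of MHC class II, all 5 of them higher in AEG-1ΔMAC, summed to 794 and 391 CPM (log2 ratio 1.02). The zone 3 index genes summed to 8543 and 3498 CPM. The part of these differences in the ratios below was not tested. In spots, fewer cells of a type and less RNA per cell cannot be told apart.

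Above the expression minimum, no gene of the set differed between the livers by 1.5-fold. Of the 43 genes, 0 were at least 1.5-fold higher in AEG-1ΔMAC, against 4.3% of all genes, and 0 were at least 1.5-fold lower, against 1.79%. The log2 ratios ran from -0.48 for Cfi to 0.35 for Fcna, with a median of 0.01, against 0.15 for all genes. Set against that median, 34 of the 43 genes lay below it and 9 above. In the 3 parts of the lobule described below, each gene was set against the part's own median of all genes. By that measure 34 of the 43 kept to one side, above or below, in all 3 parts, which come from the same libraries. The count was not made for all genes, so it cannot be called high or low. Most intervals were narrow, as the genes were counted deeply, with a median of 356 CPM against 29.5 CPM over all genes at this minimum (not adjusted for the number of probes per gene).

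**Figure D1:**
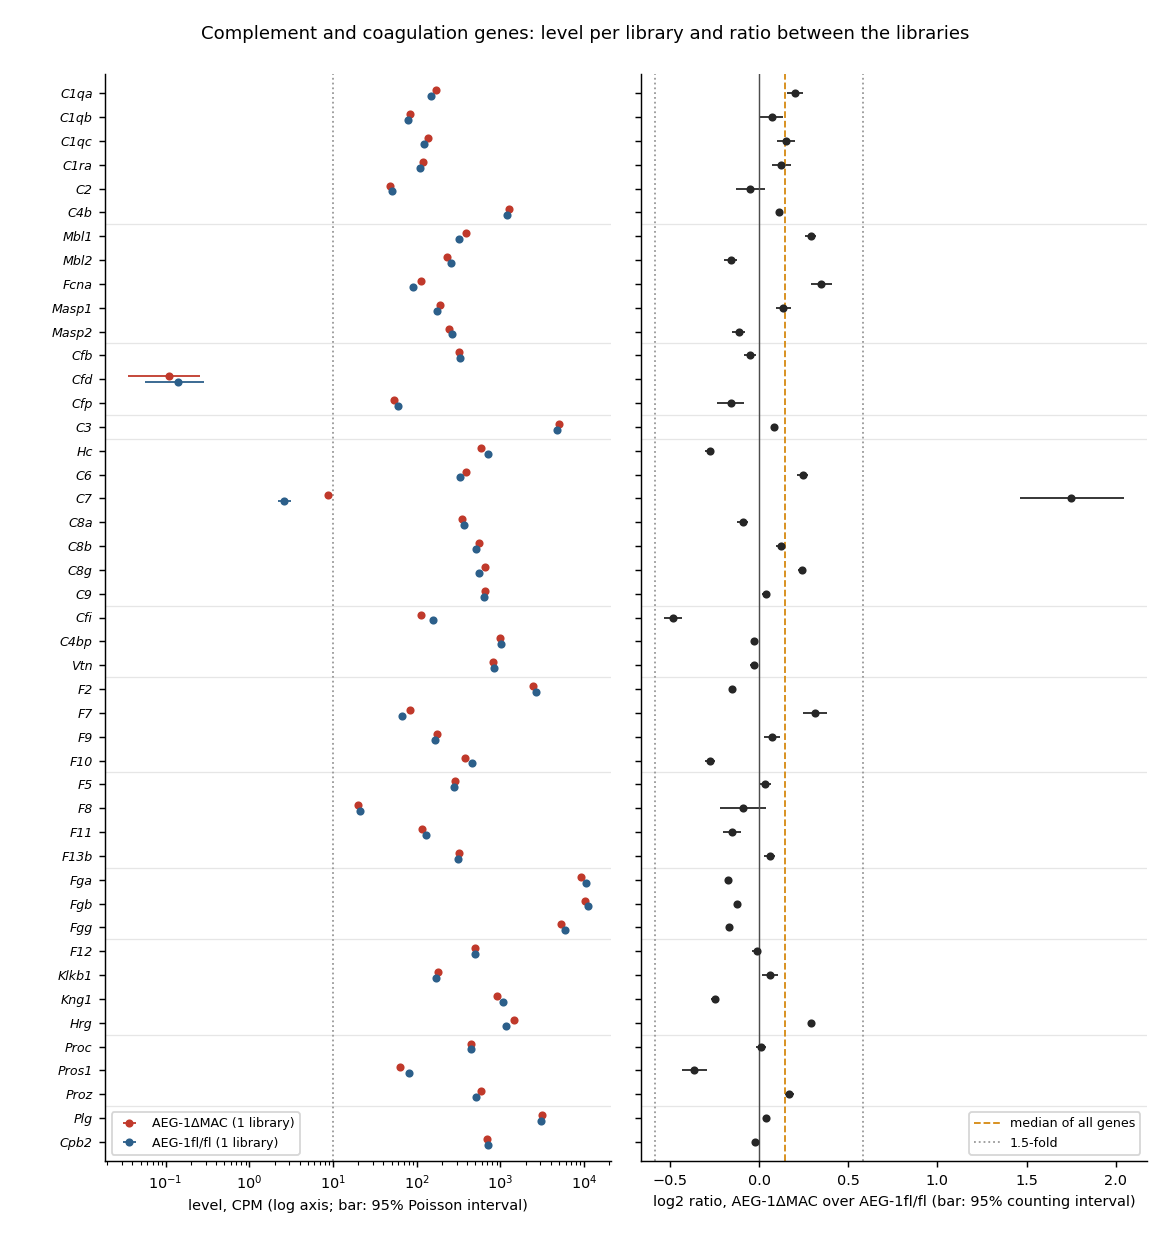
Left, level of each of the 45 genes in CPM on a log axis in the AEG-1ΔMAC library (red) and the AEG-1fl/fl library (blue), with 95% Poisson intervals and a dotted line at 10 CPM. Right, log2 ratio of the libraries with 95% counting intervals, a dashed line at the median of all genes (0.15) and dotted lines at 1.5-fold. All genes but C7 (1.75) lie between the dotted lines. Cfd, with 5 and 7 UMIs, is left out on the right.

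C1q, the recognition molecule of the classical pathway, is built of 3 chains, and all were slightly higher in AEG-1ΔMAC. C1qa stood at 168 CPM in AEG-1ΔMAC against 146 CPM in AEG-1fl/fl (log2 ratio 0.20, 0.15 to 0.25). C1qb stood at 82.7 and 78.8 CPM (0.07, 0.00 to 0.13), and C1qc at 135 and 122 CPM (0.15, 0.10 to 0.20). These ratios are those of the median gene or near it, and the MHC class II markers, whose spots were also rich in C1q below, had a ratio of 1.02. The proteases that C1q activates and their substrates were no further apart. C1ra, which encodes the protease C1r, stood at 120.1 and 110.2 CPM (0.12), and C2, which gives the catalytic part of the C3 convertase, at 48.6 and 50.3 CPM (-0.05, -0.13 to 0.03). C4b, which encodes C4, stood at 1283 and 1187 CPM (0.11). C1ra and C4b have close copies in the genome, and reads of C4b's copy, if captured, could be counted with it. C1rb, the copy of C1ra, had 0.638 and 0.795 CPM.

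In the lectin pathway, Fcna had the highest log2 ratio of the 43 genes and Mbl1 a similar one. Fcna encodes ficolin-A, a macrophage lectin, and stood at 114 and 89.4 CPM (0.35, 0.29 to 0.41). Mbl1 and Mbl2 encode the mannose-binding lectins A and C. Mbl1 stood at 391 and 320 CPM (0.29, 0.26 to 0.32) and Mbl2 at 229 and 256 CPM (-0.16, -0.20 to -0.12), so that the paired lectins lay on opposite sides of 0. Their proteases were closer to equal, Masp1 with 191 and 174 CPM (0.14) and Masp2 with 246 and 267 CPM (-0.12).

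In the alternative pathway, Cfb, the protease of its C3 convertase, stood at 320.4 and 332 CPM (-0.05). Cfp encodes properdin, which stabilises that convertase, and stood at 53.8 and 60.1 CPM (-0.16, -0.24 to -0.08). Cfd encodes factor D (adipsin), a product mainly of fat, and was nearly absent, with 5 UMIs in the AEG-1ΔMAC library against 7 in the other. C3, the component on which the pathways converge, stood at 5081 and 4790 CPM (0.09, 0.08 to 0.09).

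The terminal components did not move as a group. Hc, which encodes C5, stood at 591 and 717 CPM (-0.28, -0.30 to -0.26). C6 stood at 388 and 327 CPM (0.24, 0.21 to 0.28) and C8g, the light subunit of C8, at 654 and 553 CPM (0.24, 0.22 to 0.26). The other C8 subunits differed less, with 344 and 367 CPM for C8a (-0.09) and 557 and 512 CPM for C8b (0.12). C9, which forms the pore, stood at 650.4 and 633 CPM (0.04).

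C7 was the exception in size and lay below the expression minimum. It had 401 UMIs in AEG-1ΔMAC against 132 in AEG-1fl/fl, or 8.82 and 2.62 CPM (log2 ratio 1.75, 1.46 to 2.04). By part of the lobule, from zone 1 to zone 3, the ratio was 1.85, 1.64 and 1.68. C7 had a UMI in 233 of 2140 spots (10.9%) and in 99 of 2540 spots (3.90%). No single spot carried the difference, as the highest count in a spot was 14 and 5 UMIs and the 10 richest spots held 22.4% and 25% of the gene's UMIs.

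Among the inhibitors of complement, Cfi had the lowest log2 ratio of the 43 genes. Cfi encodes factor I, the protease that inactivates C3b and C4b, and stood at 113 and 158 CPM (-0.48, -0.53 to -0.43). It was lower in AEG-1ΔMAC in all 3 parts of the lobule, with log2 ratios of -0.48, -0.55 and -0.41. Its ratio was just inside 1.5-fold on the CPM scale and just past it when the library totals were rescaled, being -0.63 against the median of all genes. C4bp, the cofactor of factor I for C4b, stood at 992 and 1013 CPM (-0.03), and Vtn (vitronectin), which keeps the attack complex out of membranes, at 815 and 833 CPM (-0.03).

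The 3 fibrinogen chains were lower in AEG-1ΔMAC by nearly the same small amount. Fga stood at 9274 and 10456 CPM (-0.17), Fgb at 10125 and 11048 CPM (-0.13), and Fgg at 5325 and 5978 CPM (-0.17). All 3 ratios lay between -0.10 and -0.21 in each part of the lobule. The precursor of the protease that cleaves them, F2 (prothrombin), stood at 2421 and 2695 CPM (-0.15, -0.17 to -0.14).

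Of the other vitamin K-dependent factors, F7 and F10 went different ways although they and Proz are neighbours on chromosome 8. F7 encodes factor VII, which starts clotting with tissue factor, and stood at 82.1 and 66.0 CPM (0.31, 0.25 to 0.38). F10 begins 1498 bases beyond the end of F7, encodes the protease that makes thrombin, and stood at 382 and 463 CPM (-0.28, -0.31 to -0.25). Proz, which encodes protein Z, a cofactor in the inhibition of factor Xa, lies 4237 bases further. It stood at 579 and 515 CPM (0.17, 0.14 to 0.19), near the median of all genes (0.15). F9 (factor IX) stood at 173 and 165 CPM (0.07).

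Of the remaining procoagulant genes, F5, F8 and F13b were close to equal and F11 was slightly lower in AEG-1ΔMAC. F5, the cofactor of factor X, stood at 287 and 281 CPM (0.03). F8, the cofactor of factor IX, had 19.8 and 21.1 CPM (-0.09, -0.22 to 0.04). F11 (factor XI) stood at 115 and 128 CPM (-0.15), and F13b, the carrier subunit of the enzyme that crosslinks fibrin, at 321 and 309 CPM (0.06).

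The contact system, with Hrg counted there, and the anticoagulant side also held genes on both sides of 0. Kng1, the kininogen that gives bradykinin, stood at 912 and 1084 CPM (-0.25, -0.27 to -0.23), while its neighbour Hrg, a histidine-rich plasma protein, stood at 1447 and 1181 CPM (0.29, 0.28 to 0.31). Kng2, a close copy of Kng1, had a log2 ratio of -0.28 (255 and 310.1 CPM), and reads of such copies can be hard to assign. F12 (factor XII) stood at 492 and 497 CPM (-0.01) and Klkb1 (plasma kallikrein) at 179 and 172 CPM (0.06). Pros1, which encodes protein S, the cofactor of activated protein C, stood at 62.4 and 80.2 CPM (-0.36, -0.43 to -0.29). Its partner Proc (protein C) stood at 450.5 and 447 CPM (0.01). In fibrinolysis, Plg (plasminogen) stood at 3131 and 3050 CPM (0.04) and Cpb2, a carboxypeptidase that slows fibrinolysis, at 701 and 711 CPM (-0.02).

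To ask which genes came with hepatocytes and which with other cells, the 10% of spots with the highest mean value of a cell type's markers was compared with all other spots of the same library (214 and 254 spots). None of the 45 genes served as a marker. A gene was counted when the higher side exceeded the lower by at least 25% in both libraries with the interval on the same side. In Kupffer cell marker-rich spots, 5 of the 43 genes were higher, against 1.37% of all genes, and 0 were lower, against 0.678%. The 5 were C1qa, C1qb, C1qc, Fcna and Cfp, all known macrophage products.

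C1qa was 266 CPM in Kupffer cell marker-rich spots and 158 CPM elsewhere in AEG-1ΔMAC (log2 ratio 0.75, 0.66 to 0.84), and 257 against 136 CPM in AEG-1fl/fl (0.92, 0.83 to 1.01). C1qb was 143 against 76.2 CPM (0.91) and 131 against 73.7 CPM (0.83), and C1qc 232 against 124 CPM (0.90) and 214 against 112 CPM (0.93). Fcna was 184 against 106 CPM (0.79) and 155 against 83.0 CPM (0.91). Cfp was 92.4 against 49.7 CPM in AEG-1ΔMAC (0.90, 0.74 to 1.05) and 113 against 54.9 CPM in AEG-1fl/fl (1.05, 0.91 to 1.18). Each gene thus rose with the markers to a like degree in both livers. The spots in question held only 14.8% to 16.8% of the UMIs of each of the 5 genes, and 49.5% and 56.7% of them lay in the zone 1 part. Between the libraries, inside these spots alone, the log2 ratios were 0.05 for C1qa, 0.13 for C1qb, 0.11 for C1qc, 0.24 for Fcna and -0.29 for Cfp, chosen for display after their values were seen. The Kupffer cell markers themselves went both ways between the libraries, 4 higher and 4 lower, with Cd5l at 0.21, Clec4f at 0.05 and Marco, a scavenger receptor, at -1.38 (13.9 and 36.1 CPM).

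**Figure D2:**
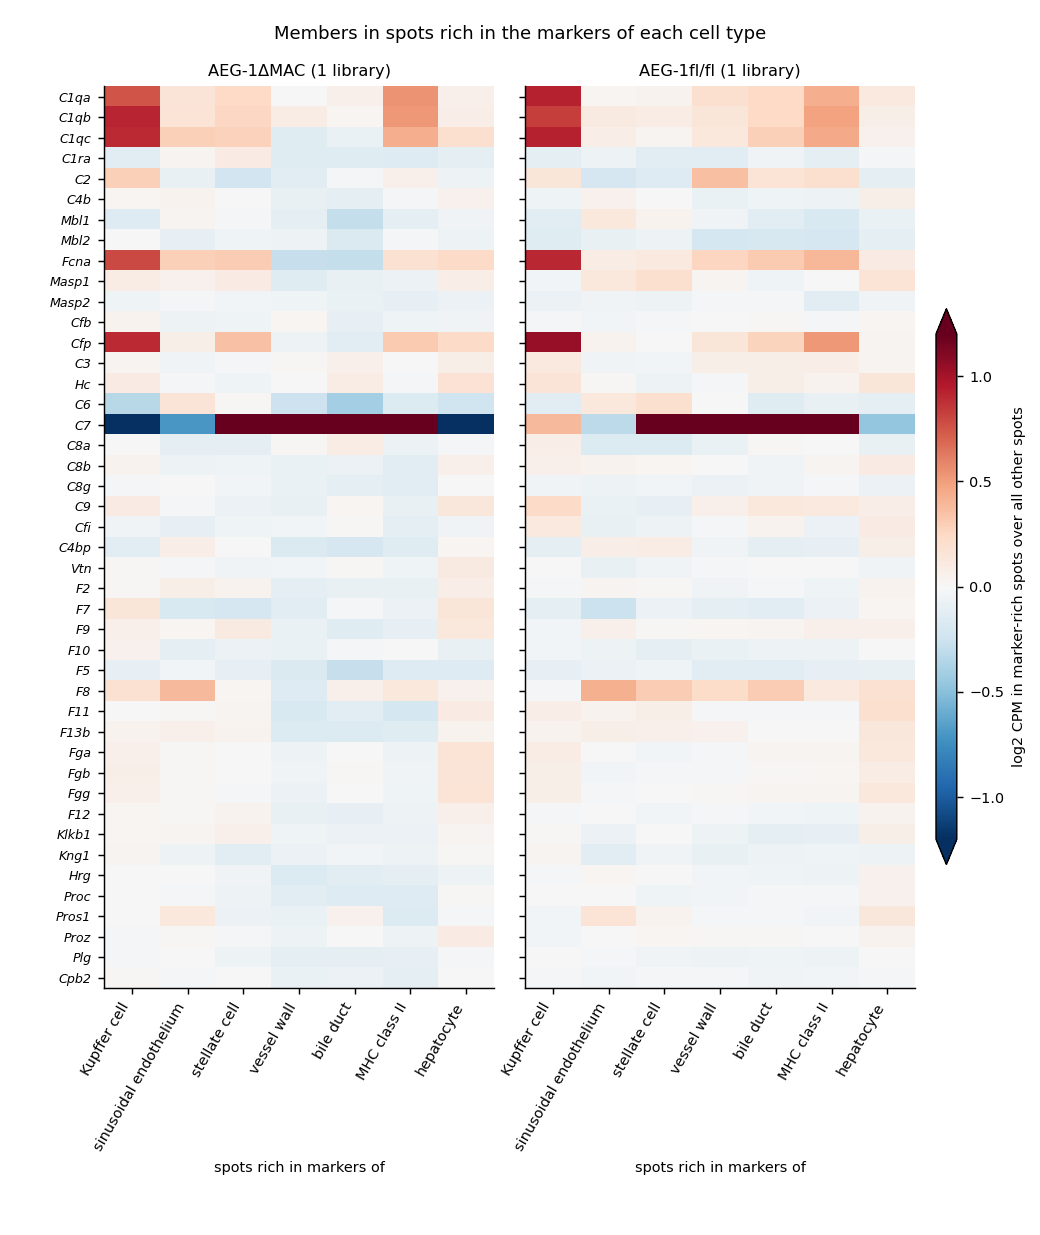
Log2 ratio of CPM in marker-rich spots over all other spots, for each gene except Cfd (rows) and each set of markers (columns), in AEG-1ΔMAC (left) and AEG-1fl/fl (right). C1qa, C1qb, C1qc, Fcna and Cfp are red in the Kupffer cell column of both libraries. C7, whose values exceed the colour scale, is dark red in the stellate cell, vessel wall, bile duct and MHC class II columns.

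C1qa, C1qb and C1qc were also higher in MHC class II-rich spots, with log2 ratios of 0.43 to 0.54 (AEG-1ΔMAC) or 0.44 to 0.48 (AEG-1fl/fl). These 3 were the only ones of 43 called there (6.98%, against 4.67% of all genes). All 3 calls were lost at 1.5-fold, and that of C1qb when spots were picked within each zone part. Cfp was added with the highest 20% of spots, and Fcna and Cfp without vessel wall-rich spots. The summed Kupffer cell markers were also higher in MHC class II-rich spots, with log2 ratios of 0.31 (AEG-1ΔMAC) and 0.41 (AEG-1fl/fl). The part of Kupffer cell content in these C1q calls was not tested. In spots rich in sinusoidal endothelium markers 1 gene was called, against 0.979%. It was F8, with 25.1 CPM in those spots and 19.3 CPM elsewhere in AEG-1ΔMAC (0.39, 0.08 to 0.68) and 27.6 against 20.5 CPM in AEG-1fl/fl (0.43, 0.14 to 0.71). Its counts were small, with 107 and 116 UMIs in the marker-rich spots, and the call was lost with the highest 20% of spots, with thinned spots or at 1.5-fold.

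Vessel wall-rich spots called 0 of the 43 genes as higher, against 3.98% of all genes, bile duct-rich spots 0 against 3.57%, and stellate cell-rich spots 0 against 1.6%. Below the minimum, C7 stood apart. In AEG-1ΔMAC it was 52.6 CPM in vessel wall-rich spots and 3.73 CPM elsewhere (log2 ratio 3.82, 3.52 to 4.12), and in AEG-1fl/fl 11.7 against 1.61 CPM (2.86, 2.33 to 3.37). Bile duct-rich spots gave 3.28 and 3.16. The vessel wall-rich spots held 62.1% of all C7 UMIs in AEG-1ΔMAC, against 44.7% in AEG-1fl/fl. Within those spots alone the libraries differed by a log2 ratio of 2.17 (249 and 59 UMIs), and in the other spots by 1.21, again examined after the values were known. The sum of the vessel wall markers was nearly level, at 52.8 and 48.1 CPM (0.13), with 6 of 8 higher in AEG-1ΔMAC. The vessel wall-rich spots themselves were unlike, as their log2 enrichment over other spots was 4.66 and 3.22 for the vessel wall markers and 2.66 and 2.02 for the bile duct markers. The part of vessel wall content in the ratio of C7 was not tested.

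Hepatocyte marker-rich spots held 0 of the 43 genes as higher, against 0.0301% of all genes, and 0 as lower, against 2.46%. Their medians there were nonetheless above those of all genes, with a log2 ratio of 0.05 in both libraries against -0.12 and -0.10. The fibrinogen chains were at 0.16 (AEG-1ΔMAC) or 0.09 to 0.12 (AEG-1fl/fl), and Hc at 0.18 and 0.14. Since hepatocytes fill most spots, these contrasts are shallow by construction.

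Along the lobule, blood runs from the portal vessels (zone 1) to the central vein (zone 3), and hepatocytes differ in function between them. Spots were ranked by zone 3 genes minus zone 1 genes, split into 3 equal parts in each library, and the outer parts compared at the same threshold. Of the 43 genes, 2 were higher in the zone 3 part in both livers, against 5.91% of all genes, and 6 were higher in the zone 1 part, against 2.47%. The gene medians were -0.05 and -0.06 (zone 3 over zone 1, AEG-1ΔMAC and AEG-1fl/fl), against 0.09 and 0.08 for all genes.

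C6 had the strongest zone 3 bias. It rose from 254 CPM in the zone 1 part to 570 CPM in the zone 3 part of AEG-1ΔMAC (log2 ratio 1.17, 1.11 to 1.22) and from 268 to 418 CPM in AEG-1fl/fl (0.64, 0.59 to 0.70). Mbl1 rose from 319.9 to 465 CPM (0.54, 0.49 to 0.59) and from 277 to 369 CPM (0.41, 0.36 to 0.47). C4bp passed the threshold in AEG-1ΔMAC and was just short of it in AEG-1fl/fl, with log2 ratios of 0.41 and 0.31. F5 (0.37 and 0.19) and Pros1 (0.35 and 0.21) passed it in AEG-1ΔMAC alone, and Masp1 (0.17 and 0.30) in neither. These are genes of different cascades and of opposite action, attack complex, lectin, inhibitor and clotting cofactor.

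On the zone 1 side stood C1qa, C1qb, C1qc and Cfp, which followed the Kupffer cell markers, together with C2 and C9. With spots thinned to 10000 UMIs the call of C1qb was lost and C8a was called. C9 fell from 731 CPM in the zone 1 part to 525 CPM in the zone 3 part of AEG-1ΔMAC (-0.48, -0.52 to -0.44) and from 716 to 522 CPM in AEG-1fl/fl (-0.46, -0.50 to -0.42). C2 fell from 55.3 to 43.3 CPM (-0.35) and from 57.7 to 42.4 CPM (-0.45). Cfp fell from 59.4 to 46.1 CPM (-0.37) and from 73.5 to 39.2 CPM (-0.91), the largest bias of the 43 on this side in AEG-1fl/fl but not in AEG-1ΔMAC, where C9 led. Below the threshold in at least 1 library but on the same side were Hc (-0.42 and -0.31), C8a (-0.32 and -0.27), C3 (-0.27 and -0.24) and Fga (-0.25 and -0.20). C6 thus ran in the opposite direction along the lobule to C9 and Hc (C5) although their products act in one complex. C7, under the minimum, was at 14.1 and 3.93 CPM in the zone 1 and zone 3 parts of AEG-1ΔMAC and at 3.93 and 1.22 CPM in AEG-1fl/fl (-1.84 and -1.68), so that C6 and C7, neighbours in the genome, had opposite biases.

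**Figure D3:**
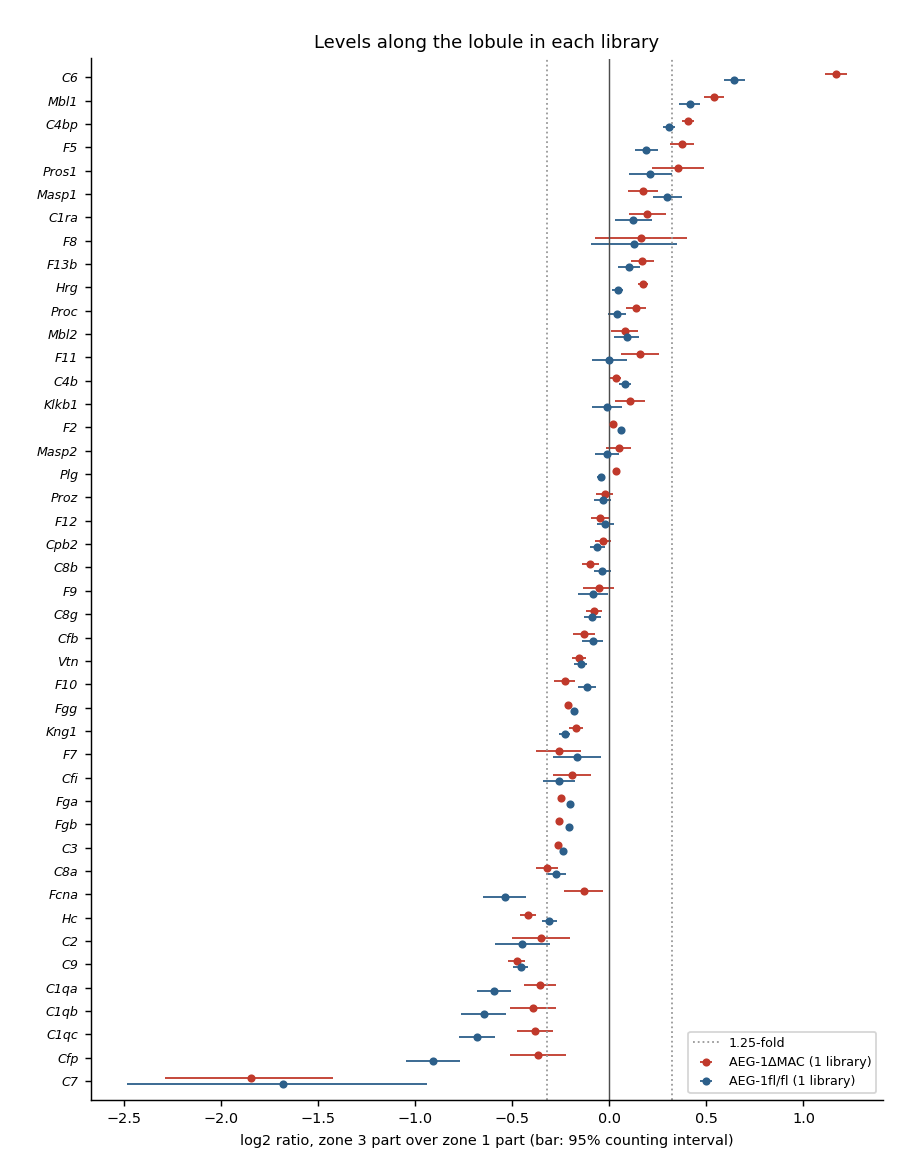
Log2 ratio of CPM in the zone 3 part over the zone 1 part for each gene except Cfd, in AEG-1ΔMAC (red) and AEG-1fl/fl (blue), with 95% counting intervals and dotted lines where one part exceeds the other by 25%. C6 and Mbl1 lie right of the dotted line in both libraries. C1qa, C1qb, C1qc, Cfp, C2 and C9 lie left of it, as does C7, which is under 10 CPM.

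The bias along the lobule differed between the livers by small amounts for many of the genes and by more for a few. The difference of the log2 zone ratios, AEG-1ΔMAC minus AEG-1fl/fl, had a median of 0.04 over the 43 genes and of 0.01 over all genes, of which 90% lay between -0.30 and 0.28. Its interval lay above 0 for 15 of the 43 genes (34.9%, against 9.25% of all genes) and below 0 for 9 (20.9%, against 8.33%), and intervals narrow with counts, of which these genes had more than most. Cfp, C6, Fcna and C1qc lay outside the 90% range. The difference was 0.54 for Cfp (0.34 to 0.74), 0.41 for Fcna (0.26 to 0.55), 0.30 for C1qc, 0.25 for C1qb and 0.24 for C1qa. The zone 1 bias of all 5 was thus shallower in AEG-1ΔMAC. The summed Kupffer cell markers shifted in the same direction, with zone ratios of -0.40 (AEG-1ΔMAC) against -0.70 (AEG-1fl/fl), a difference of 0.30. For the 5 Kupffer cell markers that the study names, the ratios were -0.36 and -0.46, a difference of 0.10. The ratio between the genotypes of these genes correspondingly depended on the part of the lobule. From zone 1 through the middle to zone 3, Fcna was at 0.17, 0.35 and 0.58, C1qa at 0.10, 0.21 and 0.34, and Cfp at -0.31, -0.26 and 0.23.

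C6 had a difference of 0.52 (0.45 to 0.60), larger than that of 99.5% of all genes, and its ratio between the genotypes was -0.08 in the zone 1 part, 0.20 in the middle and 0.45 at the zone 3 end. The zone 3 index genes, by which the spots were ranked, had zone ratios of 2.19 (AEG-1ΔMAC) against 2.52 (AEG-1fl/fl). The zone 3 landmark genes had 2.47 and 2.40. The part of zonation as a whole in the difference of C6 was not tested. Beside the C1q chains and Cfp, the other genes that passed the lobule threshold in both livers were Mbl1, C2 and C9, which differed by 0.13, 0.10 and -0.02. Of those that passed it in AEG-1ΔMAC alone, F5 differed by 0.18, Pros1 by 0.14, C4bp by 0.10 and Hc by -0.11. None of these differences has a replicate.

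**Figure D4:**
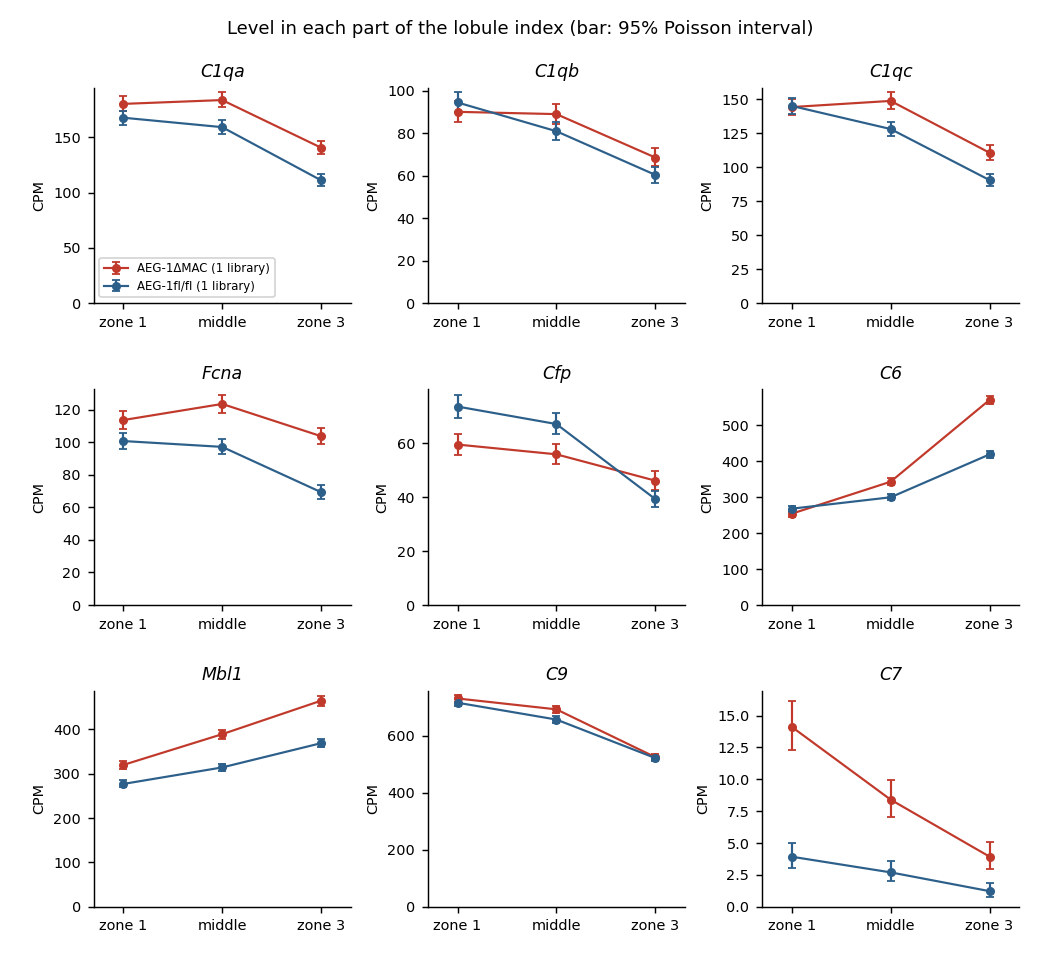
Level in CPM in each part of the spots along the lobule (zone 1, middle, zone 3) for 9 genes, in AEG-1ΔMAC (red) and AEG-1fl/fl (blue), with 95% Poisson intervals and axes that start at 0. C1qa, C1qb, C1qc, Fcna and Cfp decline toward zone 3 less in AEG-1ΔMAC, and C6 climbs more (254 to 570 CPM against 268 to 418 CPM).

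Over single spots, the chains of one protein varied together. The 3 fibrinogen chains had Pearson r of 0.48 to 0.65 over the 2140 spots of AEG-1ΔMAC and of 0.55 to 0.63 over the 2540 spots of AEG-1fl/fl, and the 3 C1q chains 0.27 to 0.34 and 0.20 to 0.32. The median over all 903 pairs was 0.06 and 0.01. Genes of other proteins reached like values, with r of 0.56 and 0.66 for Fgb with Alb. C1qa had r of 0.29 and 0.24 with Fcna. These values share library, depth and normalisation, and are a description. Other genes were ranked by the lower r of the libraries, an order that can differ within one of them. By this rule the gene most like each C1q chain, Fcna and Cfp was Cd5l, a Kupffer cell gene, with r of 0.41 and 0.34 for C1qa and 0.28 and 0.31 for Cfp. The genes most like C6 were Oat (0.58 and 0.42) and Cyp2e1 (0.56 and 0.42), both among the index genes of zone 3. C9 was most like Cyp2f2 (0.46 and 0.43), an index gene of zone 1, and C3 most like Hpx (hemopexin, 0.47 and 0.51). C7 was most like Spp1 (0.47 and 0.36), a bile duct marker, and the collagen genes Col1a1 (0.53 and 0.31) and Col3a1 (0.51 and 0.26).

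Many of these correlations were lower in spots thinned to one depth, more so in AEG-1ΔMAC. Thinning also discards counts, which lowers r through counting noise, and that part of the fall was not separated from the part of depth. Before thinning, in AEG-1ΔMAC, 125 of the 903 pairs had r of at least 0.2, and in AEG-1fl/fl 27. With spots thinned to 10000 UMIs, which left out the 26 and 106 spots that had fewer, the numbers were 10 and 9. C4b is an example, with r of 0.44 with Fgb and 0.43 with Plg in AEG-1ΔMAC, which fell to 0.10 and 0.03 after thinning. In AEG-1fl/fl the same pairs had r of 0.08 and 0.01 before it. Its own level correlated with the logarithm of the UMIs of the spot at 0.48 in AEG-1ΔMAC, against 0.00 in AEG-1fl/fl. The fibrinogen pairs remained at 0.49 to 0.59 and 0.44 to 0.53 after thinning, and Fgb with Alb at 0.61 and 0.57. The C1q pairs stood at 0.14 to 0.19 and 0.13 to 0.22, and C1qa with Fcna at 0.18 and 0.17. C6 with Cyp2e1 stood at 0.48 and 0.34, and C7 with Spp1 at 0.37 and 0.32.

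**Figure D5:**
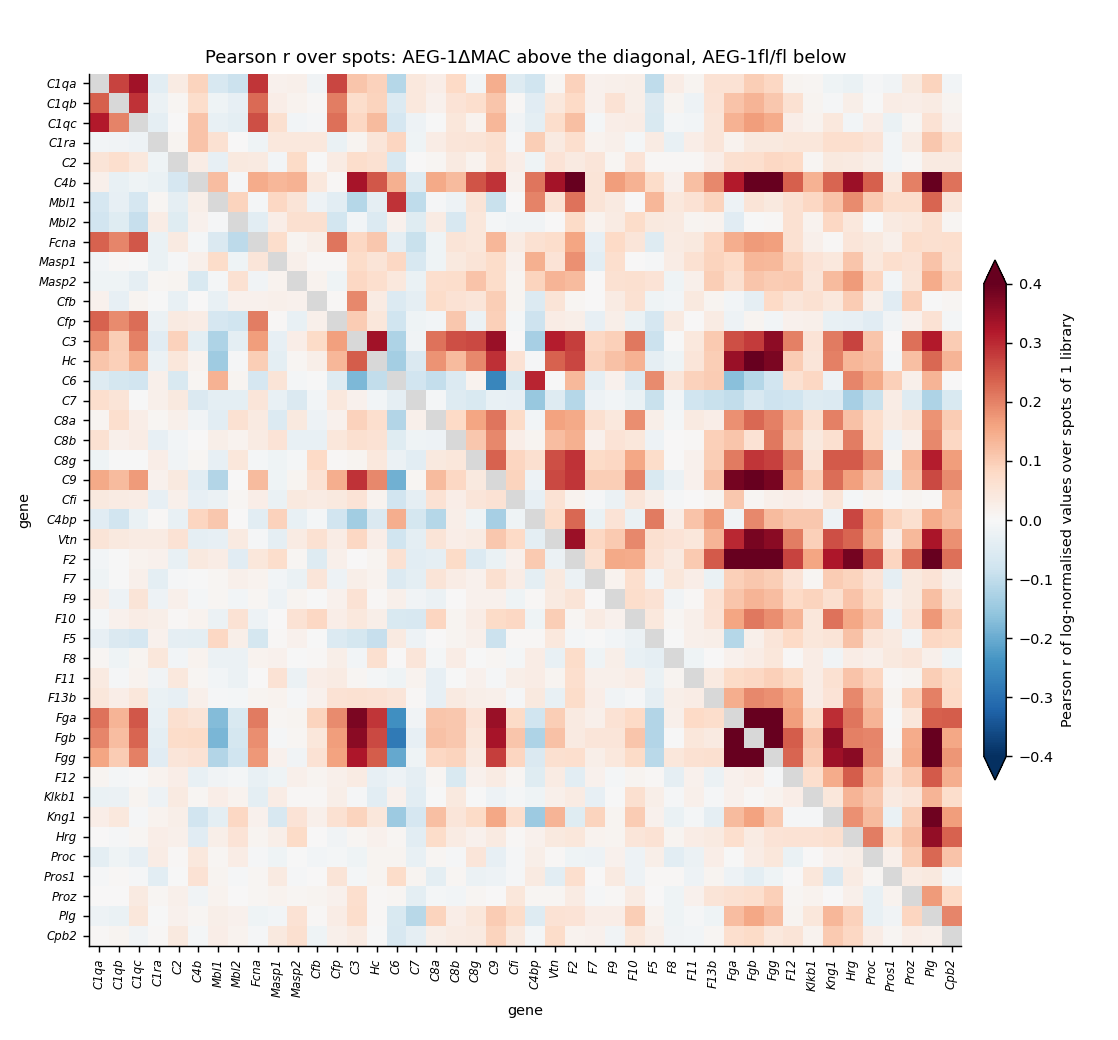
Pearson r over spots between each pair of genes except Cfd, with AEG-1ΔMAC above the diagonal and AEG-1fl/fl below, before thinning. The block of C1qa, C1qb, C1qc, Fcna and Cfp and the block of the fibrinogen chains appear on both sides, and the wider red bands above the diagonal (125 pairs of at least 0.2 against 27) were mostly gone after thinning (10 against 9).

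The other genes of the pathways were taken from lists that include receptors, membrane regulators and cofactors. Of 29 further complement genes, 26 were in the panel and 14 reached the minimum, with a median log2 ratio of 0.03 (0.15 for all genes). Of these 14, 1 was at least 1.5-fold higher, against 4.3% of all genes, and 0 were lower, against 1.79%. The higher gene was Susd4, a complement inhibitor with strong zone 3 bias, at 33.1 and 19.5 CPM (0.77, 0.65 to 0.88). Colec11, a lectin of the same pathway as the mannose-binding lectins, was at -0.48, and Vsig4, the Kupffer cell receptor for C3 fragments, at -0.07. Of 34 further coagulation and fibrinolysis genes, all in the panel, 21 reached the minimum, with a median of -0.05. Of these 21, 3 were at least 1.5-fold higher and 3 lower, against 4.3% and 1.79% of all genes. The 3 that were higher were Vwf, the endothelial carrier of factor VIII (0.62), Fgl2, a prothrombinase-like protein (1.22), and S100a10, a plasminogen-binding protein (0.64). The 3 that were lower were Tfpi2, a protease inhibitor (-0.64), Fgl1, a fibrinogen-related hepatocyte protein (-0.60), and Pzp, a broad protease inhibitor of plasma (-0.59).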

How the data were processed

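The authors' deposited files are UMI count matrices, 1 per liver section, from the Visium FFPE mouse transcriptome assay, made with Space Ranger 2.0.1 on mm10, per the labels. The submitters' processing notes name Seurat 4.3.0 for later steps, and the study's methods a later release. Counts are per probe-targeted gene and spot, so genes were not ranked by level. Spots with over 50000 UMIs, fewer than 100 or more than 7000 genes were removed (9 in AEG-1ΔMAC, 3 in AEG-1fl/fl). Spot positions were not used. UMIs were summed per library, zone part or marker-rich set and scaled to counts per 1000000 (CPM). Ratios carry exact conditional binomial (Clopper-Pearson) intervals and levels Poisson intervals at 95%, for counting error only. The differences of zone ratios carry normal-approximation intervals. Genes needed a mean of 10 CPM (10 CPM in both libraries within a library). For spot scores and correlations, values were log(1 + UMIs per 10000). Calls need 1.5-fold between libraries or an excess of 25% within them. Python 3.11.15, numpy 2.4.6, scipy 1.17.1 and pandas 2.3.3 were used, with edgeR 4.0.16 (R 4.3.3) for TMM and median-of-ratios factors. The ratio and marker-rich steps were tested on simulated data. The genes and lists were chosen with earlier results of these data known. All 45 genes are given by role, in full those apart in a comparison. Alternatives tried were the scaling, spot filter, thinning to 10000 UMIs, folds, minimum, zone index and marker-rich share.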

Additional observations from a re-analysis of the deposited data

Results flagged for a closer look

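Plg, which encodes plasminogen, was the one gene of the 43 whose bias along the lobule had intervals on opposite sides of 0 in the livers. The log2 ratio of the zone 3 part over the zone 1 part was 0.037 in AEG-1ΔMAC (3145 against 3066 CPM) and -0.043 in AEG-1fl/fl (2999.7 against 3090.3 CPM). Both are far below the threshold of a 25% excess. With 1 library per genotype the difference was not tested.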

How the results depend on the processing

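No paired analysis was possible because each genotype has 1 library and the labels give no replicate numbers. Between the genotypes, the number of genes at least 1.5-fold lower went from 0 to 1, Cfi, with TMM factors, with median-of-ratios factors, with the 50 most abundant genes left out of the totals, against the median of all genes and, in a setting added after seeing the data, within Kupffer cell marker-rich spots alone. Of all genes, 185, 188, 191 and 192 of 6933 and 181 of 6939 were lower in those settings, in that order, against 124 of 6933 before. The number at least 1.5-fold higher went from 0 to 1, C7, with a minimum mean of 1 CPM and, also added later, within vessel wall-rich spots alone. Of all genes, 590 of 11178 and 561 of 7347 were higher in these settings, against 298 of 6933 before. Along the lobule, a 1.5-fold threshold left 1 gene, C6, toward zone 3 and 0 toward zone 1, and comparing the outer 10% of spots at each end gave 13 toward zone 1, while all genes called there went from 164 to 223. Thinning kept 5 of the 6 toward zone 1, losing C1qb and adding C8a. The 5 genes higher in Kupffer cell marker-rich spots were the same 5 under all 7 alternatives. Depth limits Cfd and C7, with at most 401 UMIs per library, and F8 among the marker-rich contrasts.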
